A study of Mus musculus with 8 samples.

Results

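The 10 genes described here encode histone lysine demethylases other than LSD1: *Kdm1b*, *Kdm2a*, *Kdm2b*, *Kdm3a*, *Kdm3b*, *Kdm4a*, *Kdm4b*, *Kdm4c*, *Kdm5a* and *Kdm6b*. They are autosomal genes of the Kdm family apart from *Kdm1a*, taken by symbol from the 27041 rows of a table of RNA-seq counts, and the question was whether their mRNA levels differ in muscle that lacks LSD1. All 10 were found, and all 10 were among the 11364 genes with a mean count above 50, the genes tested. Muscles came from male mice of the C57BL/6J strain aged 9 weeks. The labels give skeletal muscle as the tissue, and the study's methods name the gastrocnemius. Ctrl mice carried floxed alleles of *Kdm1a*, the gene that encodes LSD1, and no Cre recombinase. LSD1skm-/- mice carried the same floxed alleles together with a Cre driven by the human skeletal actin (HSA) promoter, which acts in myofibers and removes the first exon of *Kdm1a*. Fibroblasts, endothelial cells and the other cells between the fibers therefore keep the gene. The labels describe 4 libraries per group, and 6 libraries have counts in the table, 4 Ctrl and 2 LSD1skm-/-. LSD1skm-/- replicates 3 and 4 were not analysed here. The labels do not say that the libraries came from separate animals, so p-values measure only the spread between these libraries.

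Histone lysine demethylases remove methyl groups from lysines of the histone tails and belong to classes with different chemistry. LSD1 and its paralog, encoded by *Kdm1b*, are amine oxidases that use FAD and act on mono- and dimethylated lysine 4 of histone H3 (H3K4). The study describes LSD1 as also acting on mono- and dimethylated H3K9, together with transcription factors. The genes other than *Kdm1b* encode Jumonji enzymes, which use iron, oxygen and 2-oxoglutarate. Some Jumonji enzymes can also act on trimethylated lysines. The preferred residues of the Jumonji enzymes differ. The KDM2 enzymes act on H3K36 and KDM2B also on H3K4, the KDM3 enzymes on H3K9, the KDM4 enzymes on H3K9 and H3K36, KDM5A on H3K4 and KDM6B on H3K27, a mark of Polycomb repression that is removed from muscle genes during myogenic differentiation.

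The libraries labelled Ctrl held 36355538, 32616912, 36213735 and 41278769 counts, in the order of their replicate numbers, and the LSD1skm-/- libraries 30654828 and 37788092. Levels are given in CPM, counts scaled to a common library size with the TMM correction for composition. *Kdm1a*, on the minus strand of chromosome 4 (chr4:136550540-136602723 in GRCm38), checks the labels. Its level was 23.0, 22.0 and 28.1 CPM in Ctrl replicates 1 to 3, 3.66 CPM in the library labelled Ctrl replicate 4, and 2.96 and 3.48 CPM in LSD1skm-/- replicates 1 and 2. The library labelled Ctrl replicate 4 thus lay beside the LSD1skm-/- libraries and went against its label. Labels were left as deposited, and each comparison was made with all 6 libraries and again without that library. The log2 fold change of *Kdm1a* (LSD1skm-/- over Ctrl) was -2.56 ± 0.74 (SE) with all libraries, with an adjusted p of 0.557 in edgeR's quasi-likelihood test. Without the library labelled Ctrl replicate 4 it was -2.91 ± 0.17 (SE), with an edgeR adjusted p of 0.000579, and the LSD1skm-/- mean was 13.2% of that of Ctrl replicates 1 to 3. In whole muscle, fewer cells of a type and less RNA per cell cannot be told apart.

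None of the 10 demethylase genes passed an adjusted p of 0.05 in edgeR, with all libraries or without the library labelled Ctrl replicate 4. When every library was kept, 0 of the 10 had an unadjusted p under 0.05, against 1011 of all genes tested (8.9%), and none of the 11364 passed the adjusted threshold (0%). DESeq2 and limma-voom called 0 of the 10 by either threshold with all libraries, and 46 and 0 of all genes by the adjusted one. Without the library labelled Ctrl replicate 4, 2292 of all genes had an unadjusted p under 0.05 in edgeR (20.2%) and 612 passed the adjusted threshold (5.39%). Of the 10 genes, *Kdm1b* alone then had an unadjusted p under 0.05, and it was lower in LSD1skm-/- muscle, as were 877 of all genes with such a p (7.72%). The 1 call in 10 is near these shares. The intervals show what differences remain compatible with the counts: with all libraries, the 95% intervals of the 10 log2 fold changes reached from -0.94 (*Kdm1b*) to 0.53 (*Kdm5a*).

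**Figure D1:**
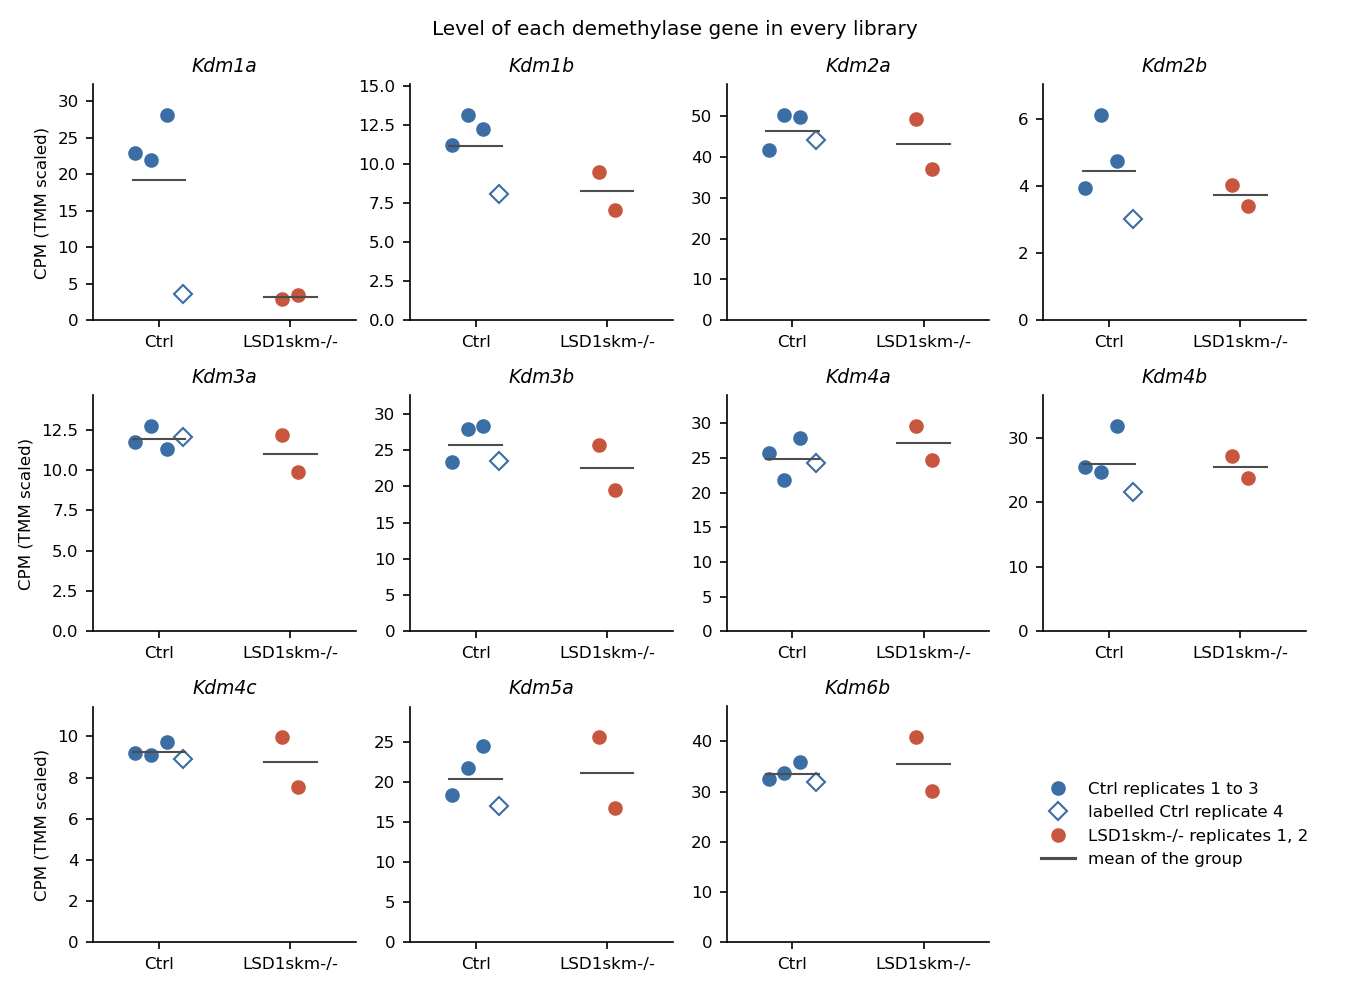
Level of *Kdm1a* and of the 10 other demethylase genes in each library, in CPM after TMM scaling (vertical axes start at 0). Blue points are Ctrl libraries, the open diamond is the library labelled Ctrl replicate 4, red points are LSD1skm-/- libraries and lines are group means; groups overlap for all 10 genes when that library is counted as Ctrl, and the open diamond lies with the red points for *Kdm1a*.

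The gene closest to *Kdm1a* in sequence and chemistry, *Kdm1b* (chr13:47043499-47085279, plus strand), had the lowest log2 fold change of the 10. KDM1B acts with the nuclear protein GLYR1 in the bodies of transcribed genes and, in oocytes, is needed for imprints to be set. *Kdm1b* was at 11.2, 13.1 and 12.3 CPM in Ctrl replicates 1 to 3, at 8.12 CPM in the library labelled Ctrl replicate 4, and at 9.48 and 7.07 CPM in LSD1skm-/- replicates 1 and 2. The 3 libraries with little *Kdm1a* were also the 3 lowest for *Kdm1b*, and the groups overlap only through the library labelled Ctrl replicate 4. Group means were 11.2 ± 2.19 CPM (SD, n = 4) in Ctrl and 8.28 ± 1.71 CPM (SD, n = 2) in LSD1skm-/- muscle. Its log2 fold change was -0.43 ± 0.22 (SE), with an edgeR adjusted p of 0.569. Without the library labelled Ctrl replicate 4 the Ctrl mean was 12.2 ± 0.964 CPM (SD, n = 3). In this comparison it was -0.56 ± 0.16 (SE), lower in 2 of 2 LSD1skm-/- libraries, with a 95% interval from -0.93 to -0.18 and an edgeR adjusted p of 0.102. With other tools on the same libraries, chosen after seeing the data, the adjusted p was 0.042 with DESeq2 and 0.0974 with limma-voom, so the call depends on the tool. Over all alternatives tried the adjusted p ranged from 0.042 to 0.95. Leaving out LSD1skm-/- replicate 2 from the full set brought the log2 fold change to -0.24.

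Without the library labelled Ctrl replicate 4, *Kdm1b* was the 1 gene of the 10 whose groups did not overlap with LSD1skm-/- lower, and 17.3% of all genes tested were separated in that way. None of the 10 was separated with LSD1skm-/- higher, against 20.3% of all genes. With all 6 libraries, 0 of the 10 were separated in either direction, against 17.8% of all genes. Part of the *Kdm1b* signal cannot be assigned to that gene alone. Its exons overlap those of *Dek*, which encodes a chromatin protein and lies on the opposite strand, over 9.19% of their bases, and 8.16% of its stretches of 50 bases are shared with *Dek* transcripts. *Dek* averaged 10.2 CPM per kb over the 6 libraries against 1.86 CPM per kb for *Kdm1b*. The kit marked strand, but the strand setting of the counting is not given in the sources used here. *Dek* was at 34.8, 35.3 and 39.3 CPM in Ctrl replicates 1 to 3, at 30.2 CPM in the library labelled Ctrl replicate 4, and at 28.8 and 27.2 CPM in LSD1skm-/- replicates 1 and 2. Its log2 fold change was -0.32 ± 0.12 (SE) with all libraries (edgeR adjusted p of 0.557) and -0.38 ± 0.11 (SE) without the library labelled Ctrl replicate 4 (adjusted p of 0.098). *Dek* thus had the same order of groups as *Kdm1b*, and its part in the *Kdm1b* counts was not tested. If the counting ignored strand, a large part of them could be *Dek* reads. As an alternative added after seeing the data, the mean level of *Dek* over the shared bases was taken off. *Kdm1b* was then at 1.03, 1.37 and 1.1 CPM per kb in Ctrl replicates 1 to 3. It was at 0.606 in the library labelled Ctrl replicate 4 and at 0.895 and 0.501 in LSD1skm-/- replicates 1 and 2.

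**Figure D2:**
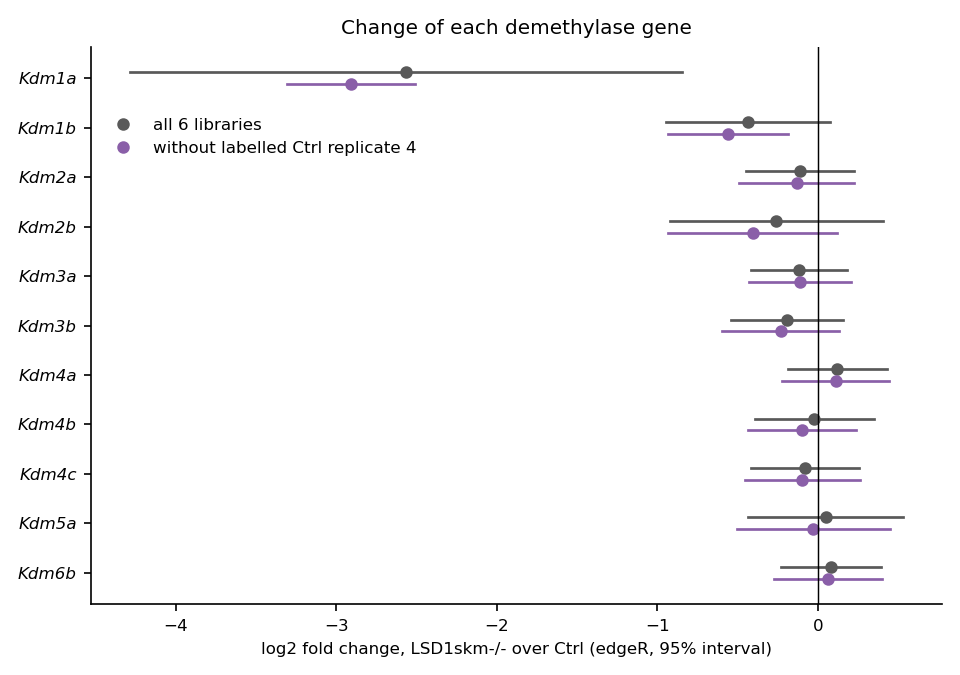
Log2 fold change (LSD1skm-/- over Ctrl) of *Kdm1a* and the 10 other demethylase genes in edgeR, as points with 95% intervals. Grey stands for all 6 libraries and purple for the fit without the library labelled Ctrl replicate 4; of the 10 genes, the interval of *Kdm1b* alone leaves 0, and only in the latter (-0.93 to -0.18).

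The 250 bases before the transcription start are shown for the FAD-dependent pair, and for *Kdm4c* as a gene whose log2 fold change was near 0. Sequences are from RefSeq on GRCm38.p6, which gave promoters for 5 of the 10 genes (*Kdm1b*, *Kdm2b*, *Kdm3a*, *Kdm4a* and *Kdm4c*) and for *Kdm1a*. They were read on the strand of the gene, at chr4:136602724-136602973 (minus), chr13:47043249-47043498 (plus) and, for the *Kdm4c* start with a match, chr4:74251629-74251878 (plus). Capitals mark matches, on either strand, to motifs of NRF1, a transcription factor of CpG-rich promoters: the full motif GCGCNTGCGC and the shorter TGCGCA, which can overlap it.
Kdm1a: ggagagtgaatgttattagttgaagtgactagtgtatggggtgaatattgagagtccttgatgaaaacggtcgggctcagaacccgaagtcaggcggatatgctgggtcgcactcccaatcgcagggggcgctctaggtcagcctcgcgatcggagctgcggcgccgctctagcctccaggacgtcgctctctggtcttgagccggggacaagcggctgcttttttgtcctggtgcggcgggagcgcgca
Kdm1b: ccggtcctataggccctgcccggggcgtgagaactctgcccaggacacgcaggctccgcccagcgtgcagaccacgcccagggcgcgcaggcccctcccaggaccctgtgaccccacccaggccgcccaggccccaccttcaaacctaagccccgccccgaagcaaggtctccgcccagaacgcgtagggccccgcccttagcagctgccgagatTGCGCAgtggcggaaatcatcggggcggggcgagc
Kdm4c: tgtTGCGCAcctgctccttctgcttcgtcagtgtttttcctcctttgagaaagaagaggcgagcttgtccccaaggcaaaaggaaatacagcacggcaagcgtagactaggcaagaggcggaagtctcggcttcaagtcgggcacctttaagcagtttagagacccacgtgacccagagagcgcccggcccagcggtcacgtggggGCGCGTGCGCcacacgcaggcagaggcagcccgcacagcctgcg
*Kdm1b* held 1 match to TGCGCA, which begins 35 bases before its start, and this *Kdm4c* start held a full match 44 bases and a TGCGCA 247 bases before it. *Kdm1a* held neither, and neither was in any window of *Kdm2b*, *Kdm3a* or *Kdm4a* or in the other *Kdm4c* window (chr4:74242247-74242496), which had 0 CpG. Over 32851 RefSeq promoters of the same length, TGCGCA was in 6.43% and the full motif in 3.74%. The letters AGAACA, a half-site of the glucocorticoid receptor, was in none of the 6 genes' windows and in 16.1% of all. CpG dinucleotides numbered 21 upstream of *Kdm1a* and 22 upstream of *Kdm1b*, against a median of 6 over all promoters. Binding data were not analysed here, and a match is only a run of letters.

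*Kdm2a* and *Kdm2b* encode H3K36 demethylases with a zinc finger that binds CpG islands, and KDM2B brings a variant Polycomb complex to such sites. *Kdm2a* (chr19:4314419-4398285, minus strand) was at 41.7, 50.1, 49.7 and 44.0 CPM in the libraries labelled Ctrl and at 49.1 and 37.0 CPM in LSD1skm-/- muscle. The LSD1skm-/- libraries stood at opposite ends of the Ctrl range, 1 near its top and 1 below it. For *Kdm2a* the log2 fold change was -0.11 ± 0.14 (SE) with all libraries and -0.13 ± 0.15 (SE) without the library labelled Ctrl replicate 4. *Kdm2b* (chr5:122870665-122989823, minus strand) was the least abundant gene of the 10, at 3.94, 6.10, 4.75 and 3.02 CPM in the libraries labelled Ctrl and 4.03 and 3.40 CPM in LSD1skm-/- muscle. Its highest and its lowest value were both in libraries labelled Ctrl. *Kdm2b* had a log2 fold change of -0.26 ± 0.28 (SE), and -0.41 ± 0.22 (SE) without the library labelled Ctrl replicate 4, with edgeR adjusted p-values of 0.774 and 0.371. Exons of *Kdm2b* overlap those of *Rnf34*, *A930024E05Rik* and *Gm44574* over 8.74% of their bases, and 12.5% of its stretches of 50 bases occur in other genes. *Rnf34*, on the opposite strand, averaged 4.45 CPM per kb over the 6 libraries against 0.387 CPM per kb for *Kdm2b*, so a large part of the *Kdm2b* counts could be reads of *Rnf34* if the counting ignored strand. It had a log2 fold change of -0.25 with all libraries and -0.33 without the library labelled Ctrl replicate 4.

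*Kdm3a* and *Kdm3b* encode H3K9 demethylases, and *Kdm3a* is a known target of hypoxia-inducible factors. *Kdm3a* (chr6:71588972-71632990, minus strand) was at 11.7, 12.7, 11.3 and 12.1 CPM in the libraries labelled Ctrl and at 12.2 and 9.89 CPM in LSD1skm-/- muscle. LSD1skm-/- replicate 1 lay inside the Ctrl range and replicate 2 below it. Its log2 fold change was -0.12 ± 0.13 (SE), and -0.11 without the library labelled Ctrl replicate 4. *Kdm3b* (chr18:34777047-34838660, plus strand) was at 23.3, 27.9, 28.3 and 23.5 CPM in the libraries labelled Ctrl and at 25.7 and 19.4 CPM in LSD1skm-/- muscle, again 1 value inside the range and 1 below. For *Kdm3b* the log2 fold change was -0.19 ± 0.15 (SE), and -0.23 ± 0.16 (SE) without the library labelled Ctrl replicate 4. *Gm26538*, on the opposite strand, overlaps 24.6% of the exon bases of *Kdm3b* and is not a row of the table under that name. Reads of that stretch could not be told apart if the counting ignored strand.

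*Kdm4a*, *Kdm4b* and *Kdm4c* encode enzymes that act on trimethylated H3K9 and H3K36, and the exons of none of them overlap those of another gene. *Kdm4a* (chr4:118136957-118180043, minus strand) had the highest log2 fold change of the 10, 0.12 ± 0.13 (SE), with 25.6, 21.8, 27.9 and 24.2 CPM in the libraries labelled Ctrl and 29.6 and 24.6 CPM in LSD1skm-/- muscle. LSD1skm-/- replicate 1 was above the Ctrl range and replicate 2 inside it, and the value was 0.11 without the library labelled Ctrl replicate 4. *Kdm4b* (chr17:56326062-56402870, plus strand) was at 25.5, 24.7, 31.8 and 21.7 CPM in the libraries labelled Ctrl and at 27.3 and 23.8 CPM in LSD1skm-/- muscle, both inside the Ctrl range. Its log2 fold change of -0.020 ± 0.16 (SE) turned to 0.025 when libraries were scaled by size alone, and was -0.096 without the library labelled Ctrl replicate 4. *Kdm4c* (chr4:74242497-74405860, plus strand) varied least among the libraries labelled Ctrl, at 9.17, 9.09, 9.74 and 8.92 CPM, or 9.23 ± 0.357 CPM (SD, n = 4). Its LSD1skm-/- values were 9.96 CPM, above all of these, and 7.52 CPM, below all of these. Its log2 fold change was -0.080 ± 0.15 (SE), and -0.095 without the library labelled Ctrl replicate 4, so the spread between the LSD1skm-/- libraries exceeded the difference between the groups.

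*Kdm5a* and *Kdm6b*, which encode demethylases of H3K4 and H3K27, also had LSD1skm-/- values both above and below all libraries labelled Ctrl. Apart from *Kdm4c*, no other demethylase gene described here showed this split. *Kdm5a* (chr6:120364124-120444574, plus strand), whose product takes trimethylated H3K4 down at promoters, was at 18.4, 21.8, 24.6 and 17.0 CPM in the libraries labelled Ctrl and at 25.6 and 16.7 CPM in LSD1skm-/- muscle. These values are the highest and the lowest of the 6 libraries, and both belong to LSD1skm-/- muscle. With all libraries the log2 fold change of *Kdm5a* was 0.049 ± 0.21 (SE), against -0.028 ± 0.20 (SE) without the library labelled Ctrl replicate 4, and an overlap of 1.77% of the exon bases is shared with *Ccdc77* on the opposite strand. *Kdm6b* (chr11:69398508-69413675, minus strand) was at 32.4, 33.7, 35.9 and 32.0 CPM in the libraries labelled Ctrl and at 40.8 and 30.2 CPM in LSD1skm-/- muscle. Here too the LSD1skm-/- libraries held both extremes. For *Kdm6b* the log2 fold change was 0.083 ± 0.14 (SE), and 0.064 without the library labelled Ctrl replicate 4. *Kdm6bos*, an antisense RNA over 4.11% of its exon bases, had a mean count of 3.5.

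All 10 genes were lower in LSD1skm-/- replicate 2 than in LSD1skm-/- replicate 1. The log2 difference between these libraries ranged from -0.61 (*Kdm5a*) to -0.19 (*Kdm4b*), with a median of -0.40, against a median of 0.012 over all genes tested. LSD1skm-/- replicate 2 was the lowest of the 6 libraries for 7 of the 10 genes, and for 20.9% of all genes, whereas LSD1skm-/- replicate 1 was the highest for 4 of the 10 and for 13.4% of all genes. The library labelled Ctrl replicate 4 was below the other Ctrl libraries for 6 of the 10 (*Kdm1b*, *Kdm2b*, *Kdm4b*, *Kdm4c*, *Kdm5a* and *Kdm6b*) and for 32.4% of all genes. The direction of the group therefore rested on single libraries. With all libraries 3 of the 10 genes had a log2 fold change above 0 and 7 below, with a median of -0.094, against a median of -0.0077 and 48.6% above 0 over all genes tested. Under scaling by library size alone the split was 4 above and 6 below, since *Kdm4b* changed sign. Without LSD1skm-/- replicate 1, 0 of the 10 were above 0 and the median was -0.30. Without LSD1skm-/- replicate 2, 7 of the 10 were above 0 and the median was 0.078. Without the library labelled Ctrl replicate 4 the median was -0.10, with 2 genes above 0.

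The difference between the LSD1skm-/- libraries moved with gene length. Over 10 bins of equal size by summed exon length, which hold the 11241 tested genes with a length, its median went from 0.27 in the shortest genes (median length 1242 bases) to -0.27 in the longest (12692 bases). The 10 demethylase genes are long, from 4895 bases (*Kdm4b*) to 14446 bases (*Kdm2a*), above 54.2% to 96.7% of these genes. *Kdm2a*, *Kdm2b*, *Kdm3b* and *Kdm5a* fall in the longest bin. For 9 of the 10, all but *Kdm2b*, the difference was below the median of their own bin. *Kdm1a*, with 5179 bases, differed by 0.23 in the other direction. With each library's trend over length removed, an alternative added after seeing the data, the median log2 fold change of the 10 was -0.055 and 0 of the 10 had an unadjusted p under 0.05, with *Kdm1b* at -0.43. The part of this trend in the levels of *Kdm5a* and the other genes was otherwise not tested.

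**Figure D3:**
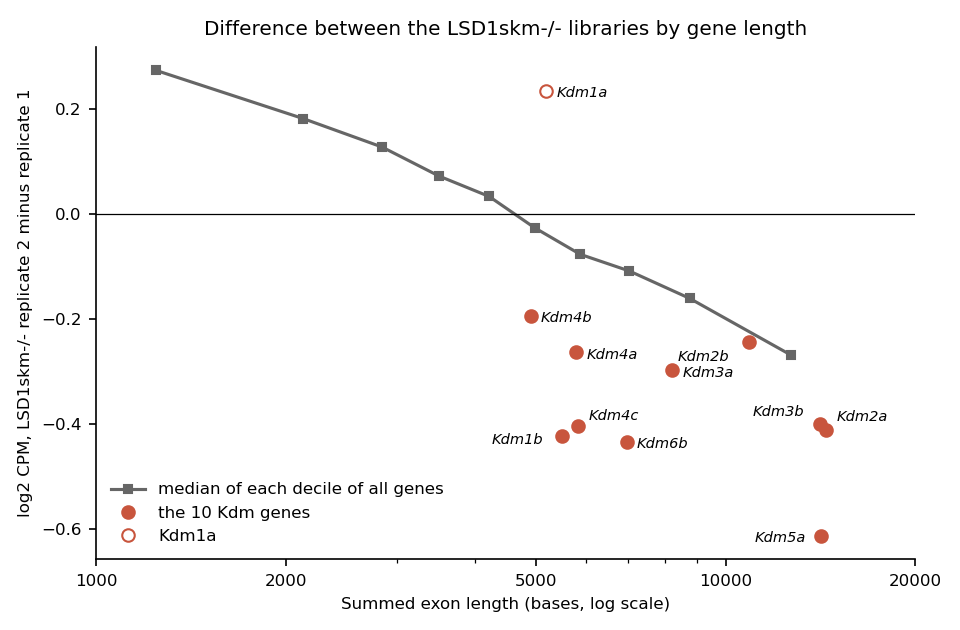
Difference in log2 CPM between LSD1skm-/- replicates 2 and 1 (vertical axis) against summed exon length in bases (horizontal axis, log scale). Squares are medians of 10 bins of the 11241 tested genes with a length, red points are the 10 demethylase genes and the open point is *Kdm1a*; all 10 lie below 0 and 9 lie below the median of their length bin.

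Levels of different genes were compared per kilobase of the union of their exons (CPM per kb). In the libraries labelled Ctrl, *Kdm4b* was the most abundant of the 10 at 5.29 ± 0.871 CPM per kb (SD, n = 4), followed by *Kdm6b* at 4.82 ± 0.253 and *Kdm4a* at 4.30 ± 0.443. The ranges of these neighbours overlap, so their order is not resolved. *Kdm2a* was next at 3.21 ± 0.29 CPM per kb. A middle group of *Kdm1b* (2.03 ± 0.398), *Kdm3b* (1.83 ± 0.192), *Kdm4c* (1.59 ± 0.0612), *Kdm3a* (1.45 ± 0.073) and *Kdm5a* (1.44 ± 0.241) overlapped from each gene to the next, and *Kdm2b* was lowest, outside their range, at 0.41 ± 0.12 CPM per kb. The order depends on the length used: as means over the 6 libraries, *Kdm1b*, *Kdm3b*, *Kdm4c* and *Kdm3a* were at 1.86, 1.75, 1.56 and 1.42 CPM per kb with the union of exons and at 2.05, 3.88, 2.16 and 2.40 with the longest coding transcript, so that *Kdm1b* went from first to last of these. *Kdm2a* moved from 3.13 to 5.28, in among *Kdm6b*, *Kdm4a* and *Kdm4b*.

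*Kdm1a* was at 4.43, 4.24 and 5.42 CPM per kb in Ctrl replicates 1 to 3, and at 0.706, 0.572 and 0.673 CPM per kb in the library labelled Ctrl replicate 4 and in LSD1skm-/- replicates 1 and 2. It made up 14.8%, 13.7% and 15.6% of the summed level of the 11 genes in Ctrl replicates 1 to 3, and 2.87%, 1.94% and 2.88% in the other libraries. Per kilobase of the longest coding transcript, *Kdm1a* was at 7.58, 7.25 and 9.27 CPM per kb in Ctrl replicates 1 to 3, so its place among the 11 genes depends on the length used. The ratio of *Kdm1b* to *Kdm1a* was 0.46, 0.563 and 0.412 in Ctrl replicates 1 to 3, so that LSD1 mRNA was the more abundant of the FAD-dependent pair. It was 2.09 in the library labelled Ctrl replicate 4 and 3.02 and 1.91 in LSD1skm-/- muscle, while the level of *Kdm1b* itself was not higher there. With the longest coding transcripts the order was the same: Ctrl replicates 1 to 3 had ratios of 0.296, 0.363 and 0.265, and the other libraries 1.35, 1.94 and 1.23. All these ratios would be lower if *Dek* reads were counted for *Kdm1b*. With the mean level of *Dek* over the shared bases taken off, an alternative added after seeing the data, the ratios per kilobase of exon union were 0.233, 0.323 and 0.203 in Ctrl replicates 1 to 3, 0.858 in the library labelled Ctrl replicate 4 and 1.56 and 0.746 in LSD1skm-/- muscle, so which mRNA was the more abundant in the last 3 libraries is not settled.

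Summed by the residue their products act on, the 3 H3K4 genes *Kdm1b*, *Kdm2b* and *Kdm5a* reached 3.70, 4.49, 4.40 and 2.96 CPM per kb in the libraries labelled Ctrl and 3.90 and 2.78 in LSD1skm-/- muscle. The 5 H3K9 genes *Kdm3a*, *Kdm3b*, *Kdm4a*, *Kdm4b* and *Kdm4c* reached 14.3, 13.9, 16.4 and 13.3 CPM per kb in the libraries labelled Ctrl and 15.7 and 13.0 in LSD1skm-/- muscle. The 5 H3K36 genes, *Kdm2a*, *Kdm2b* and the KDM4 genes, reached 14.5, 14.4, 16.9 and 13.5 CPM per kb in the libraries labelled Ctrl and 16.2 and 13.3 in LSD1skm-/- muscle. These sums rest on the union of exons and cover only the genes named here. Other demethylase genes are left out, among them *Kdm5c*, which averaged 3.54 CPM per kb over the 6 libraries. No sum separated the groups, with this length or with that of the longest coding transcript. The sum over all 10 genes was 26.4 ± 2.31 CPM per kb (SD, n = 4) in the libraries labelled Ctrl and 25.8 ± 4.37 (SD, n = 2) in LSD1skm-/- muscle, a difference smaller than either spread. Against Ctrl replicates 1 to 3 (27.2 ± 1.97, n = 3) it was also smaller than the LSD1skm-/- spread.

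**Figure D4:**
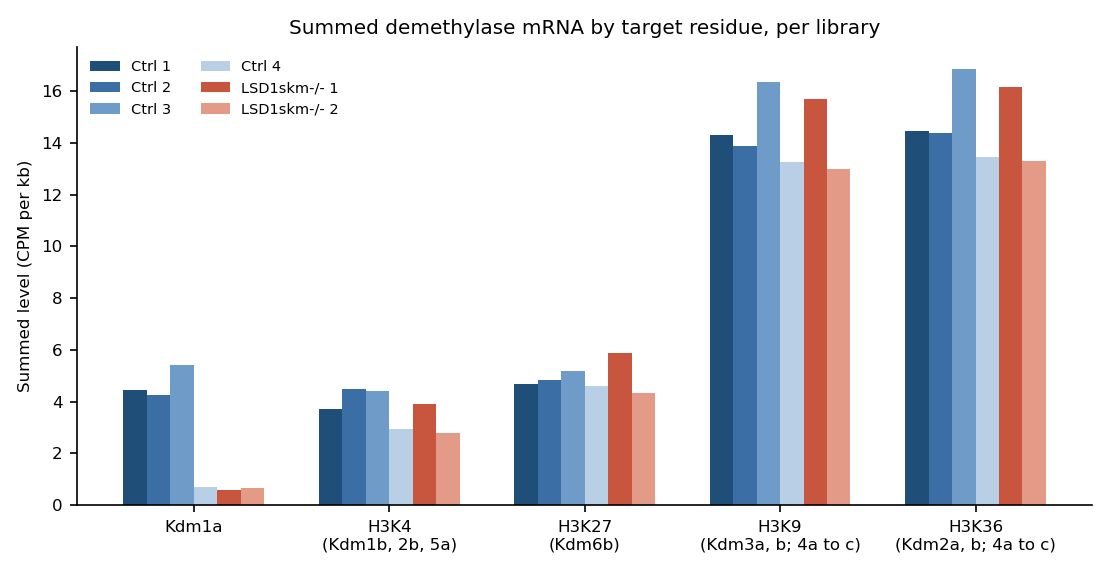
Summed mRNA level of the demethylase genes by the histone residue their products act on, in CPM per kb of exon, with 1 bar per library (blue, Ctrl replicates 1 to 4; red, LSD1skm-/- replicates 1 and 2) and the KDM4 genes counted under both H3K9 and H3K36 and *Kdm2b* under both H3K4 and H3K36. *Kdm1a* is low in the library labelled Ctrl replicate 4 and in both LSD1skm-/- libraries, and no other sum separates the groups. Demethylase genes outside those described here are not in the sums.

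Of 14 other genes listed as demethylases or their relatives, 13 were tested. A place on this list does not show that the product is a demethylase. With all libraries 5 were above 0 and 8 below (2 and 11 without the library labelled Ctrl replicate 4), the median log2 fold change was -0.063 (-0.077 without the library labelled Ctrl replicate 4), and 0 had an unadjusted p under 0.05 in either comparison. *Kdm4d*, a testis gene, had a mean count of 0.5 and was not tested. The lowest log2 fold change was that of *Jmjd1c*, a relative of the KDM3 genes, at -0.30 ± 0.23 (SE), with 25.7, 28.6, 30.9 and 19.9 CPM in the libraries labelled Ctrl and 26.4 and 16.2 CPM in LSD1skm-/- muscle. The highest was that of *Jmjd6*, at 0.12 ± 0.11 (SE). Both genes had overlapping groups. *Phf8* alone of the 13 was separated with all libraries, lower in LSD1skm-/- muscle, as were 911 of all 11364 genes tested. Without the library labelled Ctrl replicate 4, *Phf8* and *Jarid2* were separated in that direction, as were 17.3% of all genes. Over all genes tested, 570 were higher and 441 lower at an unadjusted p under 0.05, and without the library labelled Ctrl replicate 4 these were 1415 and 877.

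Among the enzymes that write the marks, 1 gene passed the adjusted threshold of edgeR, and only without the library labelled Ctrl replicate 4. In that comparison 612 of all 11364 genes tested passed (5.39%), 116 of them lower. The lists tested hold 11 H3K4, 7 H3K9, 2 H3K27, 7 H3K36 and 4 H3K79 and H4K20 genes. A place on a list does not show that the product acts on that residue. The 1 gene was *Smyd2*, which encodes a methyltransferase abundant in striated muscle that acts mainly on proteins other than histones. It was at 289, 288 and 258 CPM in Ctrl replicates 1 to 3, at 179.8 CPM in the library labelled Ctrl replicate 4, and at 149 and 184 CPM in LSD1skm-/- muscle. All 3 libraries with little *Kdm1a* were below all others. *Smyd2* fell by 0.74 ± 0.13 (SE) on the log2 scale, to 59.8% of Ctrl replicates 1 to 3 (edgeR adjusted p of 0.0181), against -0.61 ± 0.21 (SE) and an adjusted p of 0.557 with all libraries. *Smyd3* had the highest value of the 11 H3K4 methyltransferase genes, at 0.17, and 9 of the 11 were below 0, with a median of -0.13 (-0.18 without the library labelled Ctrl replicate 4).

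All 7 H3K9 methyltransferase genes had a log2 fold change below 0, from -0.45 (*Prdm2*) to -0.0046 (*Ehmt2*), as did 5846 of all 11364 genes tested. Their median was -0.25 (-0.34 without the library labelled Ctrl replicate 4), but 0 of 7 had an unadjusted p under 0.05 in either comparison. Over all genes tested, the shares with such a p were 8.9% with all libraries and 20.2% without that library. *Prdm2* was at 28.8, 42.2, 40.7 and 39.5 CPM in the libraries labelled Ctrl and at 34.3 and 21.2 CPM in LSD1skm-/- muscle, with overlapping groups. The H3K27 pair gave -0.0036 (*Ezh1*) and 0.20 (*Ezh2*), neither with an unadjusted p under 0.05. Of the 7 genes listed under H3K36, 6 were below 0, with a median of -0.17, from -0.26 (*Setd2*) to 0.31 (*Setmar*). Only without the library labelled Ctrl replicate 4 did *Setmar* (0.42) and *Setd3* (-0.24) have an unadjusted p under 0.05, as did 20.2% of all genes. *Kmt5a*, the H4K20 monomethyltransferase, was highest of the 4 H3K79 and H4K20 genes at 0.38 ± 0.13 (SE), above all Ctrl libraries in 2 of 2 LSD1skm-/- libraries. Its edgeR unadjusted p was 0.0217 and its adjusted p 0.557 with all libraries. Without the library labelled Ctrl replicate 4 these were 0.0267 and 0.181. *Kmt5b* was lowest at -0.30. The TET enzymes, which oxidise methylcytosine with the same cofactors as Jumonji enzymes, gave -0.41 (*Tet2*) and -0.11 (*Tet3*), neither with an unadjusted p under 0.05. *Tet1* had a mean count of 45.8 and was not tested, with 0.492, 1.14, 0.551 and 1.26 CPM in the libraries labelled Ctrl and 2.49 and 1.81 CPM in LSD1skm-/- muscle, above all of these.

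Of the 16 partners of the demethylases tested (of 18 listed), 14 had a log2 fold change below 0, against 5846 of all 11364 genes tested. Their median was -0.13, the lowest being *Bcor* and the highest *Bcorl1* (0.23). Without the library labelled Ctrl replicate 4, 13 were below 0, against 5795 of all genes, and the median was -0.15. Whether the list differs from other genes was not tested. The 1 partner gene with an unadjusted p under 0.05 with all libraries was *Sin3b*, which was lower, against 441 lower by that measure of all 11364 genes tested. When the library labelled Ctrl replicate 4 was dropped, *Sin3b* no longer met it, and *Bcor* and *Hdac3*, both lower, did, against 877 lower of all genes. *Bcor* encodes the corepressor of the Polycomb complex that KDM2B anchors. It was at 24.7, 23.2 and 25.0 CPM in Ctrl replicates 1 to 3, at 16.8 CPM in the library labelled Ctrl replicate 4, and at 17.0 and 18.1 CPM in LSD1skm-/- muscle. As for *Kdm1b* and *Smyd2*, the 3 lowest libraries were those with little *Kdm1a*. Without the library labelled Ctrl replicate 4, *Bcor* fell by 0.47 ± 0.10 (SE) on the log2 scale (edgeR adjusted p of 0.0475), and with all libraries the log2 fold change was -0.35 (adjusted p of 0.565). *Kdm2b* itself did not pass in either comparison.

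Genes of 2-oxoglutarate and FAD metabolism, which supply or remove the cofactors of these enzymes, split 9 above and 5 below 0 (14 tested, median 0.062), and *Idh1*, *Got1* and *Got2* had an unadjusted p under 0.05, all higher, against 570 higher of all 11364 genes tested, while 0 passed the adjusted threshold in edgeR. The split was 7 and 7, with a median of 0.011, without the library labelled Ctrl replicate 4. The highest log2 fold change was that of *Idh1*, cytosolic isocitrate dehydrogenase, at 0.45 ± 0.18 (SE). *Idh1* was at 30.5, 21.3, 27.7 and 27.8 CPM in the libraries labelled Ctrl and at 30.8 and 42.2 CPM in LSD1skm-/- muscle, so LSD1skm-/- replicate 1 was barely above Ctrl replicate 1.

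Targets of hypoxia-inducible factors were listed because *Kdm3a* is itself such a target. Of 14 tested, 10 were above 0 with all libraries, with a median of 0.083, and *Egln3*, *Car9* and *Pgk1* had an unadjusted p under 0.05, all higher, against the same 570 of all genes. By contrast 8 were above 0 without the library labelled Ctrl replicate 4, with a median of 0.13. *Egln3*, which encodes a prolyl hydroxylase of the same dioxygenase class, was at 89.6, 62.5, 77.2 and 92.8 CPM in the libraries labelled Ctrl and at 126 and 123 CPM in LSD1skm-/- muscle. All Ctrl libraries were below both. *Egln3* was higher by 0.63 ± 0.16 (SE) with all libraries (edgeR adjusted p of 0.557) and rose by 0.71 ± 0.15 (SE) without the library labelled Ctrl replicate 4 (adjusted p of 0.0418). In that comparison 496 of all genes rose by the adjusted threshold. *Car9*, a carbonic anhydrase at low level, was at 2.05, 1.23, 1.13 and 4.46 CPM in the libraries labelled Ctrl and at 4.60 and 7.58 CPM in LSD1skm-/- muscle. Its log2 fold change was 1.44 ± 0.53 (SE) with all libraries and 2.05 ± 0.32 (SE) without the library labelled Ctrl replicate 4 (edgeR adjusted p of 0.0131). The lowest of the list was *Ankrd37* at -0.35, and *Kdm3a* stayed at -0.12.

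**Figure D5:**
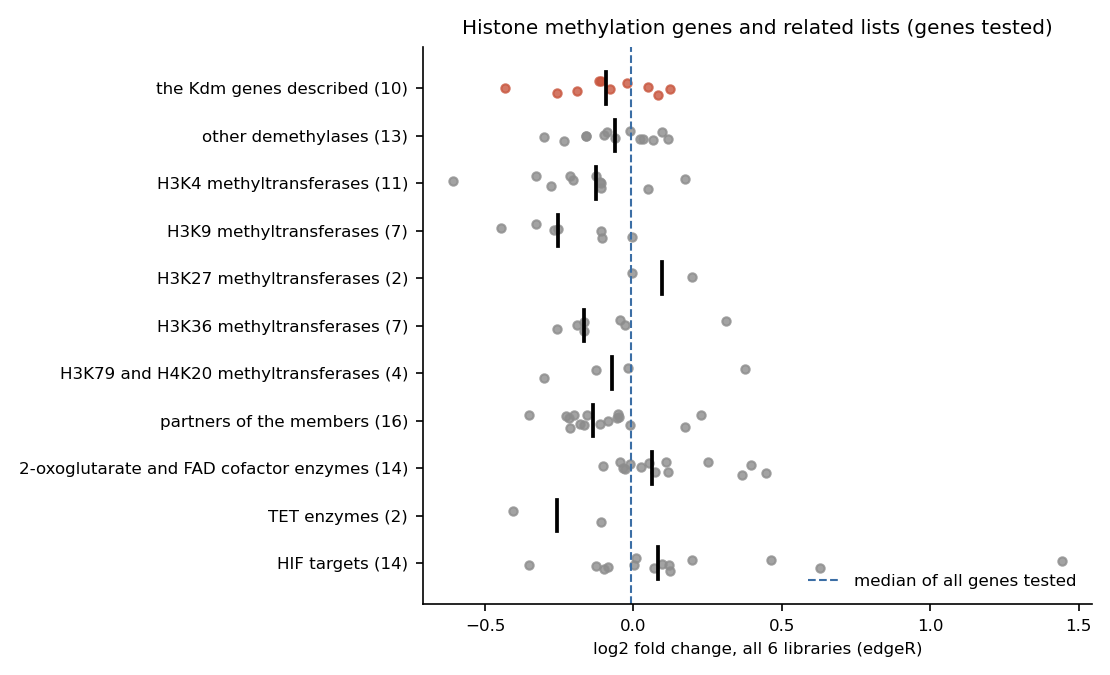
Log2 fold change with all 6 libraries (horizontal axis) of each tested gene, by list, with the number tested in brackets; red points are the 10 demethylase genes, black bars the list medians and the dashed line the median of all genes tested (-0.0077). The 10 lie between -0.43 and 0.12, and the widest spread is among the targets of hypoxia-inducible factors, with *Car9* at 1.44.

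Markers of the cells in the muscle were read beside these values. All 10 myofiber markers were detected, with *Myh4* the most abundant, and their summed level was 188100, 178300, 197800 and 170400 CPM in the libraries labelled Ctrl and 163900 and 175300 CPM in LSD1skm-/- muscle. *Myh4*, the fast myosin of type IIb fibers, was at 52910, 51340, 57080 and 39180 CPM in the libraries labelled Ctrl and at 39800 and 35250 CPM in LSD1skm-/- muscle, so the 3 libraries with little *Kdm1a* were the lowest. For *Myh4* the log2 fold change was -0.42 ± 0.17 (SE) with all libraries (edgeR adjusted p of 0.557) and -0.52 ± 0.13 (SE) without the library labelled Ctrl replicate 4 (adjusted p of 0.0662). It was the only myofiber marker with an unadjusted p under 0.05 in either comparison. *Myh1*, *Myh2*, *Ckm* and *Pvalb* were above 0 in both. *Acta1*, *Tnnt3*, *Tnni2*, *Myl1* and *Actn3* were below 0 in both, from -0.17 (*Actn3*) to -0.027 (*Acta1*) with all libraries. Summed levels of the 7 fibroblast markers, led by *Dcn*, were 485, 459, 506 and 734 CPM in the libraries labelled Ctrl and 644 and 754 CPM in LSD1skm-/- muscle, so that they were higher in the same 3 libraries in which *Kdm1a* and *Kdm1b* were lowest. *Col3a1* and *Lum* rose by 0.85 and 0.81 on the log2 scale without the library labelled Ctrl replicate 4 (edgeR adjusted p of 0.00651 and 0.0296). With all libraries these were 0.47 and 0.65 (adjusted p of 0.658 and 0.557), and *Col3a1* was highest in the library labelled Ctrl replicate 4, at 227 CPM. The 7 adipocyte markers, led by *Fabp4*, summed to 351, 306, 172 and 492 CPM in the libraries labelled Ctrl and to 166 and 178 CPM in LSD1skm-/- muscle. *Adipoq* was at 12.8, 9.70, 0.783 and 19.6 CPM in the libraries labelled Ctrl and at 0.126 and 0.558 CPM in LSD1skm-/- muscle, and *Plin1* at 4.37, 6.10, 0.232 and 10.7 against 0.063 and 0.186 CPM, so both were also near 0 in Ctrl replicate 3.

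Endothelial markers (7, led by *Flt1*) summed to 269.5, 258, 294 and 305 CPM in the libraries labelled Ctrl and to 227 and 221 CPM in LSD1skm-/- muscle. Immune markers (7, led by *Lyz2*) summed to 69.9, 61.5, 25.2 and 44.0 CPM in the libraries labelled Ctrl and to 39.3 and 64.2 CPM in LSD1skm-/- muscle, and satellite cell markers (5, led by *Cdh15*) to 26.3, 29.2, 28.3 and 34.8 against 35.1 and 33.5 CPM. Endothelial sums were lowest in LSD1skm-/- muscle, and immune sums overlapped. Satellite cell sums were highest in the 3 libraries with little *Kdm1a*, as fibroblast sums were. *Pax7*, which defines satellite cells, was at 1.91 to 3.57 CPM with overlapping groups, whereas *Cdh15* (log2 fold change of 0.31) and *Myf5* (1.12) were separated, with LSD1skm-/- higher, without the library labelled Ctrl replicate 4, with edgeR adjusted p-values of 0.165 and 0.129, while with all libraries they were at 0.25 and 0.84 and *Myf5* overlapped. *Vcam1* was on the other side of 0 (-0.11), and most of the satellite cell sum was *Cdh15*, with a mean of 22.2 CPM. Schwann cell markers (6) summed to 119, 45.1, 102, 159, 54.8 and 92.7 CPM, blood markers (6, led by *Hbb-bs*) to 43.7, 28.2, 36.6, 52.3, 64.2 and 65.8 CPM, and smooth muscle and pericyte markers (5, led by *Rgs5*) to 351, 299, 395, 436, 348 and 309 CPM, in the order of Ctrl replicates 1 to 4 and LSD1skm-/- replicates 1 and 2. Blood sums, too, were highest in the 3 libraries with little *Kdm1a*. *Hbb-bs* and *Alas2* rose by 0.82 and 0.90 on the log2 scale without the library labelled Ctrl replicate 4 (edgeR adjusted p of 0.0365 and 0.0475), against 0.67 for both with all libraries (adjusted p of 0.557). The part of these cell types in the levels of *Kdm1b* and the other demethylase genes was not tested.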

How the data were processed

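Libraries of polyadenylated RNA were made with a stranded kit and sequenced by the authors as single-end reads. Per the methods, adapter dimers were removed, reads were mapped to mm10, uniquely aligned reads were kept and genes were quantified; htseq-count and HOMER are named, the aligner is not given in the sources used here, and bcl2fastq 2.20.0.422 appears in the submitters' processing notes. The deposited values are raw counts of reads per gene. In 27041 rows, 14 symbols stand on more than 1 row (29 rows), none of them a listed gene. Genes with a mean count above 50 were tested (11364).

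Groups followed the labels. The test was edgeR's quasi-likelihood test (edgeR 4.0.16, R 4.3.3) after TMM scaling, with no term but the group and Benjamini-Hochberg adjustment over all genes tested. It was tested on simulated data, where the share of false calls among the calls was above the nominal rate, so adjusted p-values just under the threshold are less certain than they read. Standard errors were derived from the fold change and the F statistic. Libraries held 30654828 to 41278769 counts, and the number of LSD1skm-/- libraries limits the precision. DESeq2 1.42.0 and limma-voom (limma 3.58.1), other scalings and filters, a replicate block and leaving out each library were alternatives. The members and lists were chosen with earlier results of these data known. Named genes were the 10 demethylases, *Kdm1a*, the highest and lowest of each list, list genes with an adjusted p under 0.05 without the library labelled Ctrl replicate 4, and the most abundant and defining markers. *Dek*, *Rnf34* and the other overlapping genes were named for their position, and *Setd3*, *Sin3b*, *Got1*, *Got2*, *Pgk1*, *Phf8*, *Jarid2* and the other markers after their values were seen. Values of a few genes that this rule names are not reported here, and these genes remain in the counts over their lists. Positions and lengths are from GENCODE on GRCm38.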

Additional observations from a re-analysis of the deposited data

Results flagged for a closer look

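Of 104 values checked over the 4 libraries labelled Ctrl (named genes, markers and summed levels, on the log2 scale), 11 had a library whose gap to its nearest neighbour exceeded Dixon's 95% critical value as a share of the range. Chance flags about 1 in 20. *Kdm1a* was 1 of them (0.88), through the library labelled Ctrl replicate 4, although on the linear scale its share was 0.75, under that value. The same held on the linear scale for *Prdm2* (0.802), *Cfd* (0.749), *Retn* (0.698) and *Cidec* (0.712). None of the 10 other demethylase genes was among them. That library was also apart for *Col3a1* (0.932) and *Alas2* (0.931). Ctrl replicate 3 was apart for *Ckm* (0.955), *Myl1* (0.834), *Cfd* (0.911), *Retn* (0.873) and *Cidec* (0.898), the last 3 adipocyte genes. Ctrl replicate 1 was apart for *Smyd3* (0.897), *Prdm2* (0.83) and *Myh1* (0.897).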

How the results depend on the processing

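In every alternative *Kdm1a*, *Kdm1b*, *Kdm2b* and *Kdm3b* stayed below 0. *Kdm1b* lay between -0.66 and -0.24, *Kdm2b* between -0.42 and -0.071 and *Kdm3b* between -0.41 and -0.0042. The value nearest 0 came without Ctrl replicate 2 for *Kdm2b* and without LSD1skm-/- replicate 2 for *Kdm3b*. The count of demethylase genes past the adjusted threshold was 0 throughout, except 1 (*Kdm1b*) with DESeq2 without the library labelled Ctrl replicate 4. By unadjusted p it was 1 (*Kdm1b*) without a filter beyond 1 count, and also 1 without that library in edgeR, limma-voom and DESeq2, with or without the fold limits of 1.3 and 0.77. Leaving out each library in turn gave counts from 0 to 1, the 1 without LSD1skm-/- replicate 1 being *Kdm3b* (-0.41), beside 905 of all genes, and medians from -0.30 to 0.078. A lone LSD1skm-/- library is assumed in these fits to vary like the Ctrl libraries. The labels do not say whether replicate numbers pair the libraries. Same-numbered deviations correlated at -0.23 and -0.033, which with 2 LSD1skm-/- libraries cannot decide it. With a replicate block over replicates 1 and 2, 1 of the 10 (*Kdm1b*, -0.56) had an unadjusted p under 0.05, the median was -0.085 and *Kdm4b* was at 0.027. That fit holds only the 4 libraries of these replicate numbers, so its results, here and below, cannot be told apart from the effect of leaving out the libraries labelled Ctrl replicates 3 and 4. Some genes changed sign. *Kdm4b* was at 0.025 with library size scaling and ranged from -0.13 to 0.093 over the fits with a library left out (0.093 without Ctrl replicate 3, 0.074 without LSD1skm-/- replicate 2). *Kdm5a* was at -0.028 without the library labelled Ctrl replicate 4 (-0.038 in DESeq2, -0.056 in limma-voom) and ranged from -0.29 without LSD1skm-/- replicate 1 to 0.33 without LSD1skm-/- replicate 2. Between the same pair of fits *Kdm4a* went from -0.019 to 0.25, *Kdm6b* from -0.15 to 0.29, *Kdm2a* from -0.33 to 0.083, *Kdm3a* from -0.28 to 0.025 and *Kdm4c* from -0.30 to 0.11. The cause was not tested. Over all genes of each fit, 1011 unadjusted calls became 2189 without a filter, 1716 in the fit with the block and 391 to 2292 with a library left out, and 0 adjusted calls became 46 with DESeq2, 149 without a filter, 727 in the fit with the block, 6 without Ctrl replicate 3 and 612 without the library labelled Ctrl replicate 4, for which DESeq2 gave 1056 and limma-voom 627. Combinations of DESeq2 or limma-voom with a library left out, the removal of the length trend, the residue sums with the longest coding transcript, which also did not separate the groups, and the *Kdm1b* ratio with *Dek* taken off were chosen after seeing the data. With 2 LSD1skm-/- libraries the precision of every comparison is limited, and counting error adds to the spread for genes near a mean count of 50.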
